A study of Drosophila melanogaster with 12 samples.

Results

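The question asked of the 12 fat body libraries was whether the change of gene expression between a moderate and a high-sugar diet depended on the genotype of the larva. For every gene, the change from 0.15 M to 0.5 M sucrose under the label EcR RNAi was set against that in the controls, and the difference between both is called the interaction. All 10047 genes of the table, out of 10047, and all 12 libraries, out of 12, entered. Genes were then sorted by how their 4 group means lay, that is, whether the EcR RNAi label went with a reversal, a loss or a gain of the diet change. The larvae were female Drosophila melanogaster in the wandering stage of the third instar. Their mothers carried r4-GAL4 and, on the X chromosome, UAS-Dcr2. Their fathers came from VDRC stock 60000 for the control, whose sample titles hold the name w1118. Those of the other genotype came from the UAS-EcR RNAi stock VDRC 37058. Both genotypes therefore share UAS-Dcr2, which is used to strengthen RNAi, and the fat body driver r4-GAL4. Each genotype was reared on a modified Bloomington semi-defined food with 0.15 M or 0.5 M sucrose, which gave 4 groups of 3 libraries. Fat bodies were dissected, broken up by shearing and spun in a centrifuge before RNA extraction.

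EcR encodes the nuclear receptor for the steroid hormone ecdysone, and it acts as a pair with Ultraspiracle (usp). A rise of the hormone at the end of larval life ends feeding and growth and starts the remodelling of the fat body, the organ that stores fat and glycogen and that senses nutrients for the whole animal. Insulin and TOR signalling carry the nutrient signal in this organ, and ecdysone signalling is known to oppose their growth effect.

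EcR, the gene targeted, did not differ detectably between the genotypes, so each direction below is that of libraries which carry the label EcR RNAi. Its signal was 1368, 1559 and 1214 on 0.15 M and 1386, 1513 and 1463 on 0.5 M sucrose in controls, and 1235, 1023 and 1138 on 0.15 M and 1346, 1770.5 and 1125 on 0.5 M in the libraries labelled EcR RNAi. The genotypes overlapped on each diet. EcR RNAi minus control was -0.28 on 0.15 M and -0.06 on 0.5 M (log2, limma, Benjamini-Hochberg adjusted p = 0.386 and 0.847). The interaction of EcR was 0.22 ± 0.24 (log2, SE, limma, Benjamini-Hochberg adjusted p = 0.659). For w, the marker that RNAi transgenes usually carry, EcR RNAi minus control was 0.75 and 0.77 (log2, limma, Benjamini-Hochberg adjusted p = 0.0132 and 0.008), with an interaction of 0.01 ± 0.27 (log2, SE, limma, Benjamini-Hochberg adjusted p = 0.982). Dcr-2 had means of 56285 on 0.15 M and 50256 on 0.5 M in controls, and 45250 and 70626 in EcR RNAi. EcR RNAi minus control was -0.32 and 0.48 (log2, limma, Benjamini-Hochberg adjusted p = 0.486 and 0.174). The interaction of Dcr-2 was 0.80 ± 0.33 (log2, SE, limma, Benjamini-Hochberg adjusted p = 0.17). Recovered reads ran from 8527318 to 11601009 per library. The signal of control 0.5 M replicate 1 summed to 15045575 and that of the other 11 libraries to between 8864826 and 10966639. The fat body markers Lsp1alpha, Lsp1beta, Lsp1gamma, Lsp2, Fbp1, Fbp2 and Rfabg had group means from 50989 to 905727. In bulk RNA, fewer cells of a type and less RNA per cell cannot be told apart. Whether the 3 libraries of a group are from separate crosses is not stated, so the p-values rest on a spread between samples that may be technical.

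The diet change differed between the genotypes for 394 genes, 3.92% of those tested (limma, Benjamini-Hochberg adjusted p under 0.05). The interaction was higher, meaning a more positive diet change in EcR RNAi, for 260 of them (2.59%), and lower for 134 (1.33%). This split depended on the scaling of the libraries. It was 139 higher and 209 lower with upper quartile scaling, 187 and 186 after quantile normalisation, and 130 and 188 with voom on the recovered reads. Upper quartile scaling and voom moved the median interaction of all genes, which was -0.05, by -0.12 and -0.13. The called interactions ran in size from 0.67 to 4.33 on the log2(value + 1) scale, with a median of 1.17, and 264 were at least 2-fold. By the unadjusted test, 2162 genes had p under 0.05. The diet change itself passed the test for 2451 genes (24.4%) in EcR RNAi, of which 1406 (14.0%) rose and 1045 (10.4%) fell, and for 173 genes (1.72%) in controls.

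With a limit of 1.5-fold on each diet change, 315 of the 394 genes were gains in EcR RNAi, 31 were reversals and 21 were losses of a change seen in controls. A further 14 moved in the same direction in both genotypes but by more in EcR RNAi, none by less, and 13 stayed under the limit in both. Over all genes these classes held 24.8%, 1.2%, 5.74%, 4.84%, 2.18% and 61.2%. Since the classes use the same values as the test, their counts describe the called genes and test nothing further. Among the gains, 229 genes were higher on 0.5 M in EcR RNAi, with a median diet change of 0.97 against -0.07 in controls, and 86 were lower, with medians of -1.37 and 0.21. The diet change passed the test in EcR RNAi for 371 of the 394 genes, in controls for 21, in both for 8 and in neither for 10.

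**Figure D1:**
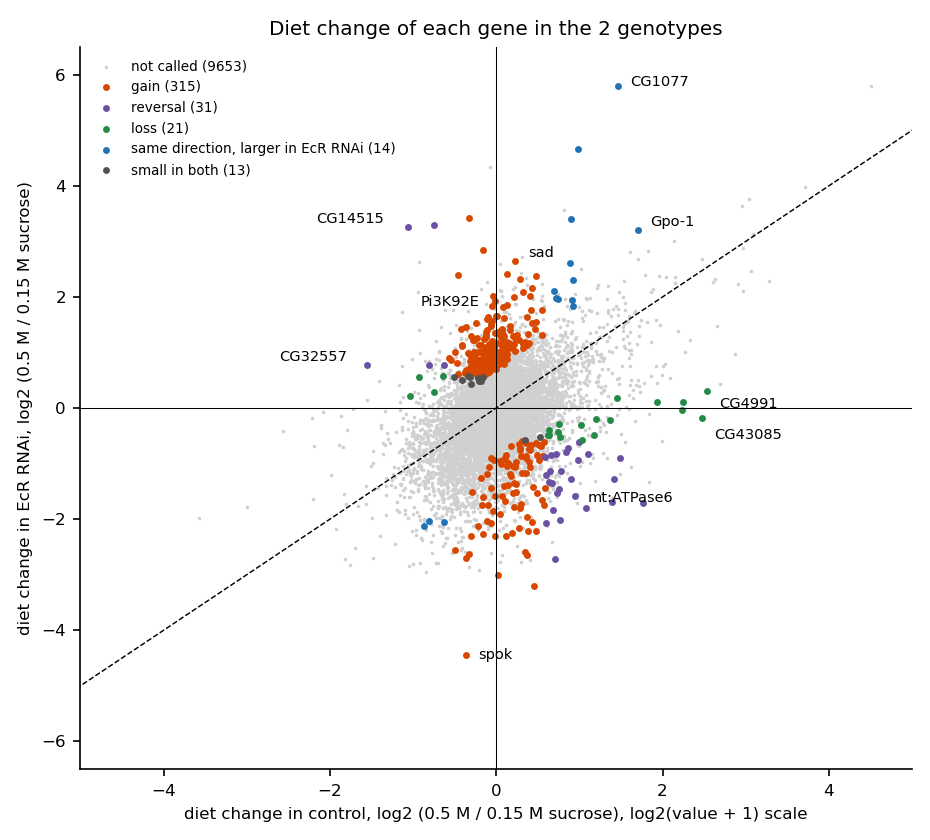
Each point is one of the 10047 genes, placed by its diet change in control (horizontal axis) and in EcR RNAi (vertical axis), both as log2 of 0.5 M over 0.15 M sucrose on the log2(value + 1) scale. Grey points were not called and coloured points are the 394 called genes by class, and on the dashed line the diet change is equal in both genotypes. The 315 gains lie along the vertical axis, the 31 reversals in the upper left and lower right parts and the 21 losses along the horizontal axis.

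The group that stood apart was most often EcR RNAi on 0.5 M. Its 3 libraries lay above the other 9 for 187 of the 260 higher genes (10.9% of all genes) and below the other 9 for 92 of the 134 lower genes (6.36% of all genes). The EcR RNAi libraries on 0.15 M lay below the other 9 for 79 higher genes (4.22% of all genes) and above them for 10 lower genes (2.42%). The 3 controls on 0.15 M lay below all others for 10 lower genes (3.76% of all genes), and the 3 controls on 0.5 M above all others for 13 lower genes (1.1%). Within EcR RNAi the diets did not overlap for 379 of the 394 genes (44.7% of all genes), and within controls for 127 (18.0%). As with the classes, these counts use the values that gave the calls, so they describe the called genes and test nothing further.

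The interaction varied with the length of the transcript. The median length of the longest annotated transcript was 3859 bases for called genes with a higher interaction, 1177 for those with a lower one and 2001 for all 9605 genes with a length. For genes up to 500 bases the median interaction was -0.59, with 0 called higher and 16 lower. For genes over 4000 bases it was 0.27, with 119 called higher and 6 lower. The slope on log2 length of the log2 deviation from the gene's mean differed between libraries. It was 0.07 to 0.09 per doubling of length in the EcR RNAi libraries on 0.5 M, -0.02 to 0.03 in controls on 0.15 M, -0.11 to -0.01 in controls on 0.5 M and -0.10 to 0.02 in EcR RNAi on 0.15 M. With this trend removed from each library, 120 genes were called higher and 80 lower, and 168 of the 200 were also among the 394. The part that RNA quality or library preparation has in this was not tested. Calls of named genes that did not hold with the trend removed are given beside each group, with the adjusted p of that fit.

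**Figure D2:**
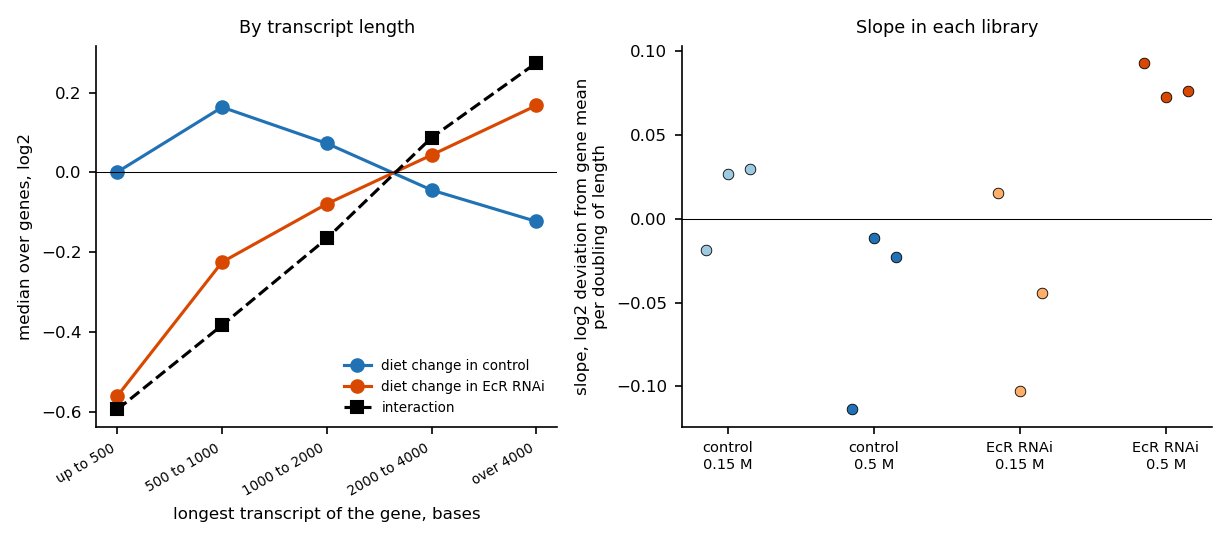
The left panel gives the median diet change in each genotype and the median interaction (log2) in 5 bins of the length of a gene's longest transcript in bases, and the right panel gives 1 point per library for the slope of log2 deviation from the gene's mean on log2 length. The interaction goes from -0.59 in the shortest to 0.27 in the longest bin, and the 3 EcR RNAi libraries on 0.5 M have the highest slopes.

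Of the genes gained upward, Pino, CG6707 and CG9451, among those with the smallest p, were highest in EcR RNAi on 0.5 M sucrose. CG5966, among those with the largest interaction, was lowest in EcR RNAi on 0.15 M. The signal of Pino was 943, 765 and 762 on 0.15 M and 993, 808 and 633 on 0.5 M sucrose in controls. In EcR RNAi it was 729, 702 and 743 on 0.15 M and 3150.0, 2726 and 2954 on 0.5 M. The 3 EcR RNAi libraries on 0.5 M lay above all 9 others, and the controls overlapped between the diets. The interaction of Pino was 2.06 ± 0.24 (log2, SE, limma, Benjamini-Hochberg adjusted p = 0.000465). CG6707 had 759, 693 and 679 on 0.15 M and 648, 702 and 695 on 0.5 M sucrose in controls. In EcR RNAi CG6707 had 431, 422 and 459 on 0.15 M and 1318, 1128 and 1324 on 0.5 M. Its EcR RNAi libraries lay below all others on 0.15 M and above all others on 0.5 M. The interaction of CG6707 was 1.58 ± 0.18 (log2, SE, limma, Benjamini-Hochberg adjusted p = 0.000465). CG9451 rose from 24.4, 23.5 and 20.1 to 192, 142 and 173 in EcR RNAi, against 16.2, 19.9 and 15.3 on 0.15 M and 18.5, 11.2 and 16.8 on 0.5 M sucrose in controls. All 9 other libraries were below the 3 of EcR RNAi on 0.5 M. The interaction of CG9451 was 2.99 ± 0.36 (log2, SE, limma, Benjamini-Hochberg adjusted p = 0.000549). A further gain was that of CG5966, a predicted lipase gene, which rose in EcR RNAi from 829 ± 74.7 to 4440.1 ± 836 (SD, n = 3 each), against 3436 ± 662 and 3859.6 ± 1324 in controls. Here the EcR RNAi libraries on 0.15 M were the ones that lay below all others. The interaction of CG5966 was 2.27 ± 0.32 (log2, SE, limma, Benjamini-Hochberg adjusted p = 0.0017). These 4 calls held without each single library and with the length trend removed.

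**Figure D3:**
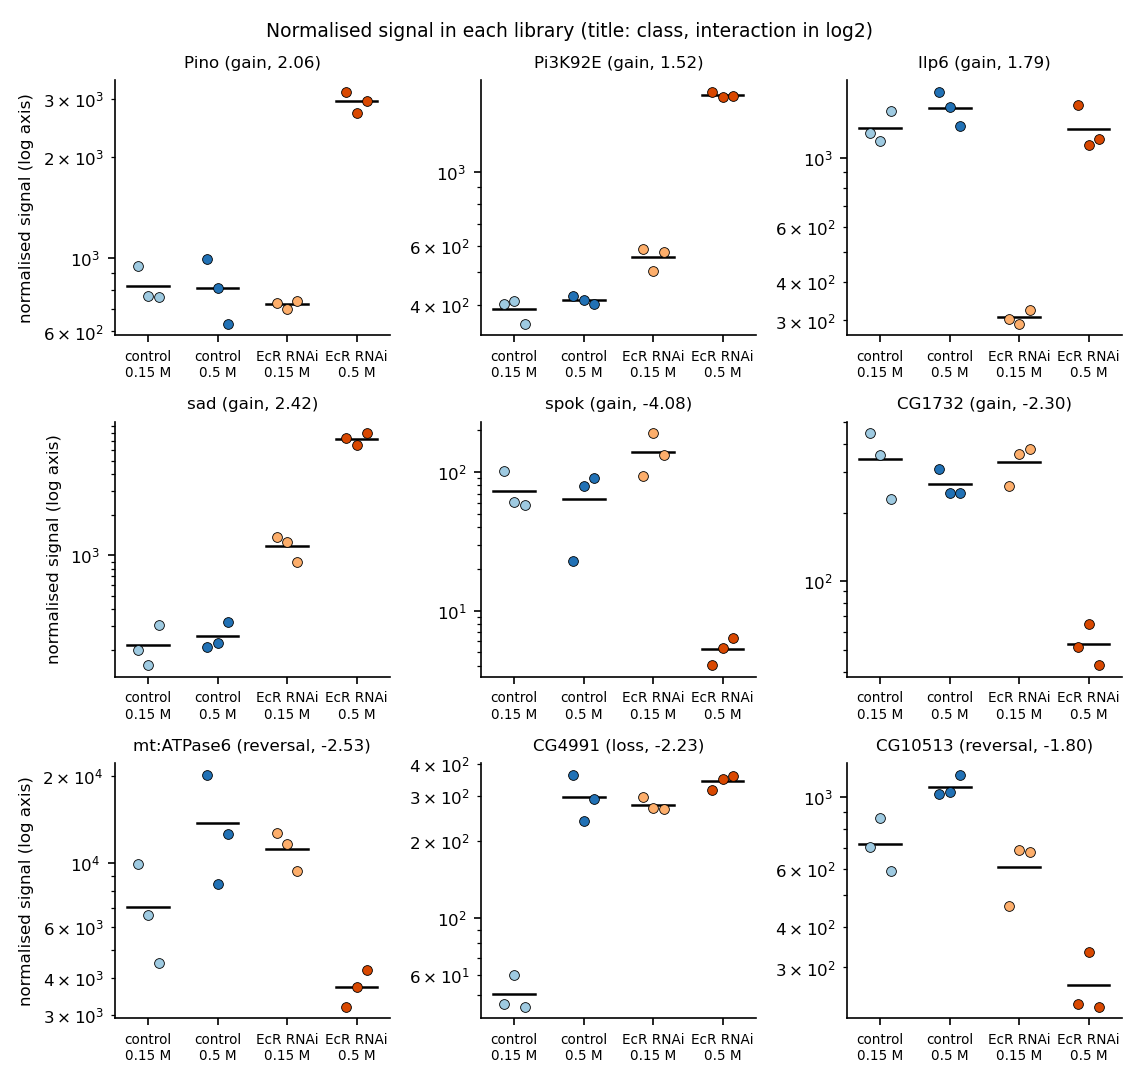
Each panel shows 1 gene, with the normalised signal of every library on a log axis and a line at the mean of each group of 3, and its title gives the class and the interaction in log2. In the panels of Pino, Pi3K92E, sad, spok, CG1732, mt:ATPase6 and CG10513 the EcR RNAi libraries on 0.5 M lie apart, in that of Ilp6 the EcR RNAi libraries on 0.15 M, and in that of CG4991 the controls on 0.15 M.

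Many genes of the insulin and TOR pathways rose on 0.5 M sucrose in EcR RNAi. Of 27 measured genes, 7 had a called interaction, each of them higher, against 2.59% of all genes called higher. In EcR RNAi 16 of the 27 rose with the diet and none fell (14.0% and 10.4% of all genes). In controls none passed the test (1.72% of all genes). The median interaction was 0.50, against -0.05 over all genes, and 22 of the 27 were above 0. The median stayed above 0 under each other scaling, at 0.38 with upper quartile scaling, 0.32 after quantile normalisation and 0.38 with voom, and it was 0.25 with the length trend removed.

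Ilp6, a fat body insulin-like peptide, had 1199.7, 1134 and 1414 on 0.15 M and 1637, 1461 and 1265 on 0.5 M sucrose in controls. In EcR RNAi it had 304, 293 and 324 on 0.15 M and 1478, 1102 and 1149 on 0.5 M. The 3 EcR RNAi libraries on 0.15 M lay far below all 9 others, whose ranges overlapped. The interaction of Ilp6 was 1.79 ± 0.22 (log2, SE, limma, Benjamini-Hochberg adjusted p = 0.000581). Pi3K92E, the catalytic subunit of the insulin-activated phosphoinositide 3-kinase, had 402, 411 and 350.5 on 0.15 M and 425, 413 and 403 on 0.5 M sucrose in controls. In EcR RNAi Pi3K92E had 586, 504 and 576 on 0.15 M and 1741, 1681 and 1687 on 0.5 M. For this gene the EcR RNAi libraries on 0.5 M lay above all others. The interaction of Pi3K92E was 1.52 ± 0.18 (log2, SE, limma, Benjamini-Hochberg adjusted p = 0.000502). Thor, the translation inhibitor 4E-BP that acts below TOR and foxo, had 636, 717 and 982 on 0.15 M and 1294, 1011 and 677 on 0.5 M sucrose in controls. In EcR RNAi Thor had 179, 159 and 228 on 0.15 M and 988, 648 and 776 on 0.5 M. Like Ilp6, it was lowest in the 3 EcR RNAi libraries on 0.15 M. The interaction of Thor was 1.75 ± 0.34 (log2, SE, limma, Benjamini-Hochberg adjusted p = 0.0121). Sesn, a stress-induced inhibitor of TOR, had group means of 663 and 538 in controls and 859.9 and 1456 in EcR RNAi, with an interaction of 1.07 ± 0.21 (log2, SE, limma, Benjamini-Hochberg adjusted p = 0.0122).

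The other 3 called members were S6k, a TOR-activated kinase, at 0.89 ± 0.19, gig, the Tsc2 subunit of a TOR inhibitor, at 0.91 ± 0.20, and Akt1, the kinase below phosphoinositide 3-kinase, at 0.91 ± 0.22 (log2, SE, limma, Benjamini-Hochberg adjusted p = 0.0184, 0.021 and 0.0329). The 7 held activators of the pathway (Pi3K92E, Akt1) and inhibitors (Sesn, gig). The receptor InR gave 0.50, Tor 0.53 and foxo -0.21, none of which passed the test (limma, Benjamini-Hochberg adjusted p = 0.178, 0.146 and 0.583). Leaving out 1 library gave between 4 members called, without control 0.15 M replicate 2, EcR RNAi 0.15 M replicate 2 or EcR RNAi 0.5 M replicate 1, and 9, without control 0.15 M replicate 3. With the length trend removed Pi3K92E, Ilp6 and Thor remained called, and Sesn, gig and Akt1 did not (limma, Benjamini-Hochberg adjusted p = 0.0688, 0.107 and 0.143), while S6k has no length in the annotation used.

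**Figure D4:**
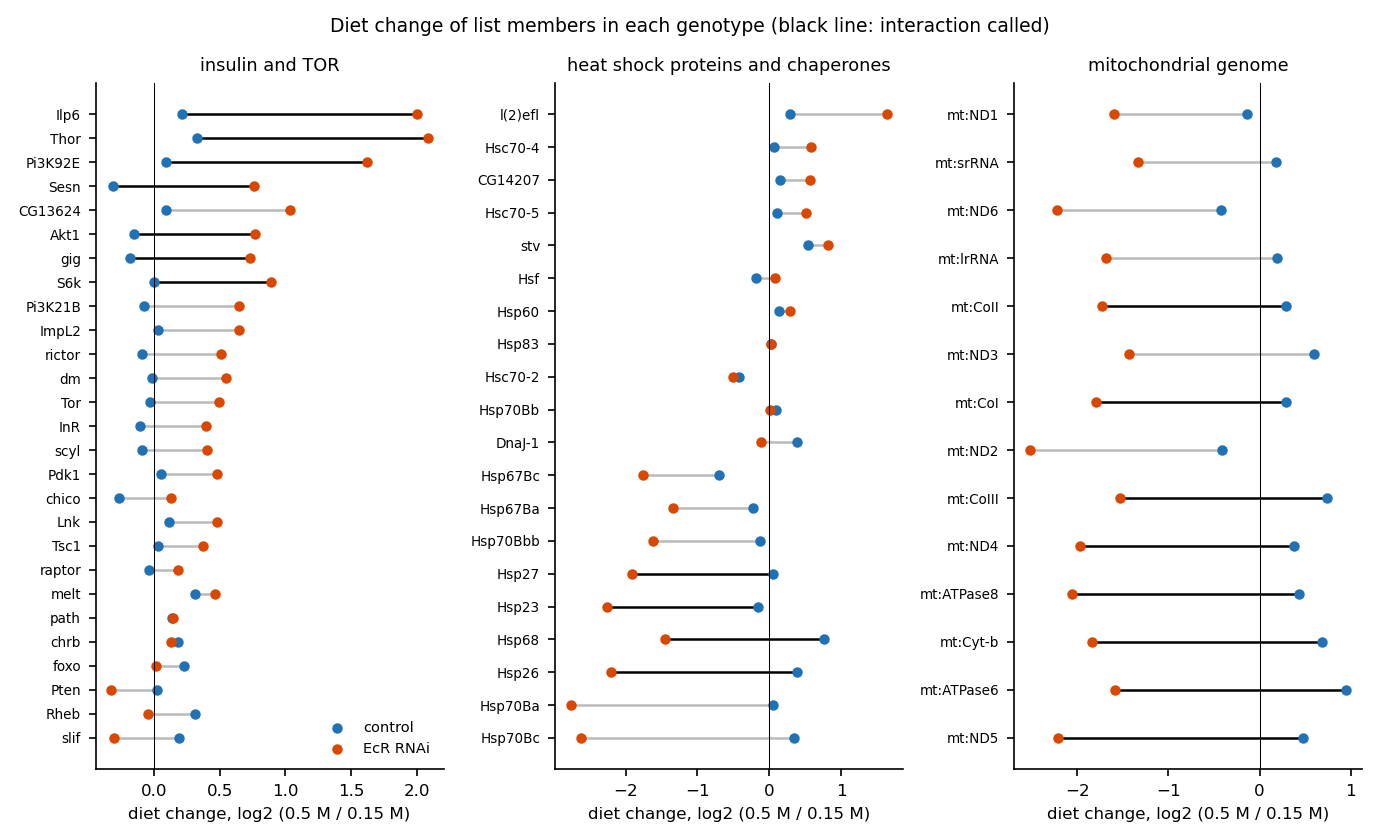
For each member of 3 gene lists, a blue point gives the diet change in control and an orange point that in EcR RNAi (log2 of 0.5 M over 0.15 M sucrose), joined by a line that is black where the interaction was called. In the insulin and TOR list 22 of 27 orange points lie to the right of the blue ones, and for the mitochondrial genome all 14 lie to the left.

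Among genes of sugar and lipid metabolism few interactions were called, and each was higher. Gpo-1, the mitochondrial glycerol-3-phosphate dehydrogenase, had 88.1, 93.2 and 86.8 on 0.15 M and 374, 217 and 313 on 0.5 M sucrose in controls. In EcR RNAi Gpo-1 had 97.5, 55.2 and 70.3 on 0.15 M and 684, 557 and 803 on 0.5 M. The diets did not overlap in either genotype, and the gene rose in both, by 1.71 and 3.20 on the log2 scale. The interaction of Gpo-1 was 1.5 ± 0.31 (log2, SE, limma, Benjamini-Hochberg adjusted p = 0.0149). Mio, now named Mondo, the fly homologue of the sugar-responsive factor ChREBP, had 588, 617 and 557 on 0.15 M and 783, 828 and 676 on 0.5 M sucrose in controls. In EcR RNAi Mio had 528, 426 and 675 on 0.15 M and 2058, 1580.1 and 1408 on 0.5 M. The EcR RNAi libraries on 0.5 M lay above the other 9. The interaction of Mio was 1.26 ± 0.25 (log2, SE, limma, Benjamini-Hochberg adjusted p = 0.0122). Of its partner and target genes, bigmax had an interaction of 0.06 and sug, the sugar-induced factor Sugarbabe, of 0.04, and neither passed the test (limma, Benjamini-Hochberg adjusted p = 0.92 and 0.963). The called sugar sensing genes numbered 3 of 12 in place of 1 when control 0.5 M replicate 1 was left out. Over all 10047 genes that fit called 377 higher in place of 260. Gpo-1 and Mio held without each single library, and Gpo-1 with the length trend removed, but Mio was not called in that fit (limma, Benjamini-Hochberg adjusted p = 0.0511).

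Men, the malic enzyme that makes NADPH for fat synthesis, had 3125, 2690.3 and 1753 on 0.15 M and 4000, 2755 and 3238 on 0.5 M sucrose in controls. In EcR RNAi Men had 6092, 6373 and 6995 on 0.15 M and 18898, 18566 and 18820.0 on 0.5 M. It was already higher in EcR RNAi on 0.15 M, without overlap, and higher again on 0.5 M, with an interaction of 1.11 ± 0.30 (log2, SE, limma, Benjamini-Hochberg adjusted p = 0.0478). The call was lost without 10 of the 12 libraries in turn and had its highest adjusted p (limma, Benjamini-Hochberg) at 0.123 when control 0.15 M replicate 2 was left out, and it was not made with the length trend removed (limma, Benjamini-Hochberg adjusted p = 0.116). It was the one call among 25 lipogenesis genes, of which 12 rose and 1 fell with the diet in EcR RNAi (14.0% and 10.4% of all genes) and 3 changed in controls (1.72% of all genes), with a median interaction of 0.20 that was -0.04 with the length trend removed. bmm, the lipase Brummer, had means of 273 and 353 in controls and 151 and 383 in EcR RNAi, an interaction of 0.96 ± 0.24 (log2, SE, limma, Benjamini-Hochberg adjusted p = 0.0388). This call was lost without 9 of the 12 libraries in turn and had its highest adjusted p (limma, Benjamini-Hochberg) at 0.102 when control 0.15 M replicate 2 was left out, and it was not made with the length trend removed (limma, Benjamini-Hochberg adjusted p = 0.0665). It was the one call among 20 genes of lipolysis and fatty acid oxidation (2.59% of all genes were called higher). With the diet 12 of the 20 rose and none fell in EcR RNAi (14.0% and 10.4% of all genes). In controls 3 changed (1.72% of all genes). The median interaction was 0.43, and also 0.43 with the length trend removed. Without control 0.5 M replicate 1 the called members were 4 for lipogenesis and 5 for lipolysis, in a fit that called 377 of all 10047 genes higher in place of 260. Of 14 glycolysis genes 8 rose in EcR RNAi (14.0% of all genes) and none passed the test in controls (1.72% of all genes), yet no interaction was called, with a median of 0.31. ACC, which makes malonyl-CoA for fatty acids, rose by 1.18 in EcR RNAi against 0.50 in controls, an interaction of 0.68 ± 0.30 that did not pass (limma, Benjamini-Hochberg adjusted p = 0.207).

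Some immune signalling genes rose on 0.5 M sucrose in EcR RNAi. Of 24 genes of the Toll and Imd pathways 4 were called, each of them higher (2.59% of all genes). Their median interaction was 0.27, and 0.24 with the length trend removed. Of 19 effector genes 1 was called, which was lower (1.33% of all genes). The effector median was -0.81, and -0.42 with the length trend removed. In that fit their median diet change in EcR RNAi turned from -0.18 to 0.24. Rel, the NF-kappaB factor Relish of the Imd pathway, had 989, 1037 and 1058 on 0.15 M and 944, 844 and 935 on 0.5 M sucrose in controls. In EcR RNAi Rel had 873, 941 and 945 on 0.15 M and 1946, 1706 and 1912 on 0.5 M. The 3 EcR RNAi libraries on 0.5 M were above the other 9, which lay between 844 and 1058. The interaction of Rel was 1.19 ± 0.19 (log2, SE, limma, Benjamini-Hochberg adjusted p = 0.0033). pirk, an inhibitor of the same pathway, had 34.3, 21.3 and 28.6 on 0.15 M and 23.3, 17.0 and 21.2 on 0.5 M sucrose in controls. In EcR RNAi pirk had 33.2, 32.9 and 19.1 on 0.15 M and 68.7, 76.9 and 82.3 on 0.5 M, again highest in EcR RNAi on 0.5 M, with an interaction of 1.85 ± 0.39 (log2, SE, limma, Benjamini-Hochberg adjusted p = 0.0163). Myd88, the adaptor of the Toll receptor, and Tak1, a kinase of the Imd pathway, gave 0.86 ± 0.21 and 0.79 ± 0.21 (log2, SE, limma, Benjamini-Hochberg adjusted p = 0.0365 and 0.0451). Both of the latter were lost without 8 or 9 of the 12 libraries in turn, with highest adjusted p = 0.115 and 0.121 without EcR RNAi 0.5 M replicate 1, and with the length trend removed (limma, Benjamini-Hochberg adjusted p = 0.107 and 0.13). The effector, PGRP-SB1, a peptidoglycan-cleaving amidase, had means of 119 and 135 in controls and 37.4 and 11.4 in EcR RNAi. Its interaction of -1.99 ± 0.50 (log2, SE, limma, Benjamini-Hochberg adjusted p = 0.0408) was lost without 11 of the 12 libraries in turn and had its highest adjusted p (limma, Benjamini-Hochberg) at 0.116 when EcR RNAi 0.5 M replicate 1 was left out, and was not called with the length trend removed (limma, Benjamini-Hochberg adjusted p = 0.144). The called genes of the Toll and Imd list numbered 2 without 8 of the 12 libraries in turn, namely each control on 0.15 M, EcR RNAi 0.15 M replicates 1 and 2, control 0.5 M replicate 3 and EcR RNAi 0.5 M replicates 1 and 3.

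Single members of the autophagy, lysosome, clock and remodelling lists were higher. Atg2, which moves lipid to growing autophagosomes, had means of 1130.0 and 1073 in controls and 661 and 1236 in EcR RNAi, an interaction of 1.0 ± 0.23 (log2, SE, limma, Benjamini-Hochberg adjusted p = 0.0259), and was the one call among the 22 listed autophagy genes (2.59% of all genes were called higher). Of the 22, 9 rose in EcR RNAi (14.0% of all genes) and none passed the test in controls (1.72% of all genes). It was lost without 6 of the 12 libraries in turn and had its highest adjusted p (limma, Benjamini-Hochberg) at 0.0779 when EcR RNAi 0.5 M replicate 1 was left out, and it was not called with the length trend removed (limma, Benjamini-Hochberg adjusted p = 0.136). CG8678 and CG6194, autophagy genes outside the list that were chosen after their values were seen, gave 1.48 ± 0.21 and 1.43 ± 0.28 (log2, SE, limma, Benjamini-Hochberg adjusted p = 0.0017 and 0.0121), and both were called in all 12 fits without 1 library and with the length trend removed. Vha55, a subunit of the proton pump of lysosomes, gave 0.98 ± 0.23, and Mmp1, the matrix metalloproteinase used in fat body remodelling, 1.1501 ± 0.25 (log2, SE, limma, Benjamini-Hochberg adjusted p = 0.0299 and 0.0181). The call of Vha55 was lost without 7 of the 12 libraries in turn and had its highest adjusted p (limma, Benjamini-Hochberg) at 0.0996 when EcR RNAi 0.5 M replicate 1 was left out. That of Mmp1 was lost without 2 of the 12 libraries in turn and had its highest adjusted p (limma, Benjamini-Hochberg) at 0.0641 when EcR RNAi 0.5 M replicate 1 was left out, and it was not made with the length trend removed (limma, Benjamini-Hochberg adjusted p = 0.0786). emp, a scavenger receptor of the CD36 family, had 217, 183 and 221 on 0.15 M and 251, 318 and 270.2 on 0.5 M sucrose in controls. In EcR RNAi emp had 177, 133 and 179.7 on 0.15 M and 751, 685 and 752 on 0.5 M. All 3 EcR RNAi libraries on 0.5 M lay above the other 9. The interaction of emp was 1.74 ± 0.21 (log2, SE, limma, Benjamini-Hochberg adjusted p = 0.000581), which held in all fits without 1 library and with the length trend removed.

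Genes of ecdysone synthesis moved in both directions, with sad rising and spok and phm falling on 0.5 M sucrose in EcR RNAi. These enzymes act in the ring gland, apart from shd (shade), which turns ecdysone into its active form in other tissues such as the fat body. Of 7 measured genes 1 was called higher and 3 lower (2.59% and 1.33% of all genes), and the median interaction was -1.05. sad (shadow), a late hydroxylase of the pathway, had 199, 155 and 304 on 0.15 M and 209, 226 and 322 on 0.5 M sucrose in controls. In EcR RNAi it had 1373, 1265 and 891 on 0.15 M and 7360.4, 6512 and 7988 on 0.5 M. The controls on both diets were lowest, EcR RNAi on 0.15 M lay above them and EcR RNAi on 0.5 M higher still, without overlap. The interaction of sad was 2.42 ± 0.33 (log2, SE, limma, Benjamini-Hochberg adjusted p = 0.0018).

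spok (spookier), an early enzyme of the pathway, had 101, 61.2 and 58.3 on 0.15 M and 23, 79.8 and 90.5 on 0.5 M sucrose in controls. In EcR RNAi spok had 93.8, 191 and 133 on 0.15 M and 4.05, 5.42 and 6.34 on 0.5 M. The 3 EcR RNAi libraries on 0.5 M lay below all others. The interaction of spok was -4.08 ± 0.62 (log2, SE, limma, Benjamini-Hochberg adjusted p = 0.0043). phm (phantom), the C25 hydroxylase, had 129.7, 95.8 and 187 on 0.15 M and 57.4, 139 and 136 on 0.5 M sucrose in controls. In EcR RNAi phm had 235, 231 and 239 on 0.15 M and 33.3, 29.4 and 45 on 0.5 M, also lowest in EcR RNAi on 0.5 M, with -2.34 ± 0.44 (log2, SE, limma, Benjamini-Hochberg adjusted p = 0.0122). sad, spok and phm held in each fit without 1 library and with the length trend removed. For shd the means were 644 and 1117 in controls and 581 and 479 in EcR RNAi, an interaction of -1.05 ± 0.28 (log2, SE, limma, Benjamini-Hochberg adjusted p = 0.0459) that was lost without 10 of the 12 libraries in turn and had its highest adjusted p (limma, Benjamini-Hochberg) at 0.103 when EcR RNAi 0.5 M replicate 3 was left out, and that was not called with the length trend removed (limma, Benjamini-Hochberg adjusted p = 0.0592). Of the 6 measured genes of the ring gland list 2 were called lower, the same spok and phm. The 6 genes summed to 508 to 569 in EcR RNAi on 0.5 M against 787 to 1472 in the other 9 libraries. That list does not hold sad, whose interaction was higher. Ptth and jhamt, also in that list, had means from 1.94 to 8.07 and from 3.93 to 7.79. The part of ring gland RNA in these results was not tested.

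Of 28 measured ecdysone response genes 1 was called, vri, against 3.92% of all genes, and the median interaction was 0.17, or 0.0036 with the length trend removed. usp gave 0.16, br (Broad) 0.08, Eip74EF 0.39, Eip75B 0.10 and ftz-f1 0.28, with adjusted p from 0.319 to 0.901 (limma, Benjamini-Hochberg). vri (vrille) is an ecdysone-regulated and clock transcription factor, and it had 484, 523 and 484 on 0.15 M and 473, 494 and 479.6 on 0.5 M sucrose in controls. In EcR RNAi vri had 338, 292 and 366 on 0.15 M and 586, 524 and 682 on 0.5 M. The EcR RNAi libraries lay below all others on 0.15 M and above all others on 0.5 M. The interaction of vri was 0.89 ± 0.19 (log2, SE, limma, Benjamini-Hochberg adjusted p = 0.0202). It was lost without 5 of the 12 libraries in turn and had its highest adjusted p (limma, Benjamini-Hochberg) at 0.0649 when EcR RNAi 0.15 M replicate 2 was left out, and was not called with the length trend removed (limma, Benjamini-Hochberg adjusted p = 0.0727). With sgg, the kinase GSK3, at 0.78 ± 0.20 (log2, SE, limma, Benjamini-Hochberg adjusted p = 0.0444), it made 2 of 9 clock genes, and sgg was lost without 11 of the 12 libraries in turn and had its highest adjusted p (limma, Benjamini-Hochberg) at 0.137 when EcR RNAi 0.5 M replicate 1 was left out, and was not called with the length trend removed (limma, Benjamini-Hochberg adjusted p = 0.212). Sox14, an ecdysone-induced transcription factor outside the list, was chosen after its values were seen. It had 671, 555 and 558 on 0.15 M and 361, 540.1 and 504 on 0.5 M sucrose in controls. In EcR RNAi Sox14 had 231, 202 and 247 on 0.15 M and 649, 571 and 644 on 0.5 M. The EcR RNAi libraries on 0.15 M lay below all others. The interaction of Sox14 was 1.81 ± 0.23 (log2, SE, limma, Benjamini-Hochberg adjusted p = 0.000581), and it was called in all 12 fits without 1 library and with the length trend removed. ImpE2 and ImpE3, both ecdysone-induced, fell with the diet in EcR RNAi, with changes of -2.49 and -1.62 on the log2 scale, but their interactions of -1.85 ± 0.66 and -1.12 ± 0.40 did not pass (limma, Benjamini-Hochberg adjusted p = 0.151 and 0.119).

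Transcripts of the mitochondrial genome fell on 0.5 M sucrose in EcR RNAi. This list was made after its values were seen. Of 14 measured genes 8 were called lower, against 1.33% of all genes. With the diet 13 fell in EcR RNAi (10.4% of all genes), while none passed the test in controls (1.72% of all genes). The median interaction was -2.09, and between -2.21 and -1.84 under the other scalings and with the length trend removed. mt:ATPase6, a subunit of the ATP synthase, had 9978, 6629.9 and 4525 on 0.15 M and 20243, 8456 and 12584 on 0.5 M sucrose in controls. In EcR RNAi mt:ATPase6 had 12693, 11620.0 and 9375 on 0.15 M and 3193, 3745 and 4276 on 0.5 M. Controls overlapped between the diets and EcR RNAi did not. The interaction of mt:ATPase6 was -2.53 ± 0.44 (log2, SE, limma, Benjamini-Hochberg adjusted p = 0.0073). mt:CoI, mt:Cyt-b and mt:ND5, of the respiratory complexes, gave -2.08 ± 0.40, -2.52 ± 0.50 and -2.69 ± 0.52 (log2, SE, limma, Benjamini-Hochberg adjusted p = 0.011, 0.0133 and 0.0156). These 4 held without each single library and with the length trend removed. The other 4 called genes were less stable. mt:CoII, mt:ATPase8, mt:CoIII and mt:ND4 were called in 9, 8, 5 and 5 of the 12 fits without 1 library, and mt:CoII was not called with the length trend removed (limma, Benjamini-Hochberg adjusted p = 0.0532). The count of called genes was 4 without control 0.15 M replicate 2, EcR RNAi 0.15 M replicate 2 or EcR RNAi 0.5 M replicate 1, and 11 without control 0.5 M replicate 2. mt:lrRNA, the large ribosomal RNA, which is the most abundant feature of the list, had means of 465787 and 613227 in controls and 645817 and 206757 in EcR RNAi, and did not pass the test (limma, Benjamini-Hochberg adjusted p = 0.0718). These genes lie next to each other on 1 circular genome and are cut from shared transcripts, so they are not independent of each other.

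Of 67 measured nuclear genes of the respiratory chain, 3 were called lower (1.33% of all genes) and the median interaction was -0.11, which was 0.23 with the length trend removed. Ucrh, a subunit of complex III now named UQCR-11, had 367, 233 and 192 on 0.15 M and 535, 374 and 476 on 0.5 M sucrose in controls. In EcR RNAi Ucrh had 391, 425 and 276 on 0.15 M and 198, 195 and 227 on 0.5 M. The controls were higher and the EcR RNAi libraries lower on 0.5 M, without overlap between diets. The interaction of Ucrh was -1.63 ± 0.31 (log2, SE, limma, Benjamini-Hochberg adjusted p = 0.0115). CG34439 and CG40002, the complex I subunits ND-MWFE and ND-AGGG, gave -1.12 ± 0.24 and -1.44 ± 0.31 (log2, SE, limma, Benjamini-Hochberg adjusted p = 0.0163 and 0.0179). Both lost the call with the length trend removed (limma, Benjamini-Hochberg adjusted p = 0.101 and 0.0727). The call of CG34439 was lost without 1 of the 12 libraries in turn and had its highest adjusted p (limma, Benjamini-Hochberg) at 0.0563 when EcR RNAi 0.5 M replicate 1 was left out. That of CG40002 was lost without 2 of the 12 libraries in turn and had its highest adjusted p (limma, Benjamini-Hochberg) at 0.0593 when EcR RNAi 0.5 M replicate 1 was left out. Of 87 cytoplasmic ribosomal protein genes 1 was called, RpL41, at -1.21 ± 0.32 (log2, SE, limma, Benjamini-Hochberg adjusted p = 0.0473). It was lost without 10 of the 12 libraries in turn and had its highest adjusted p (limma, Benjamini-Hochberg) at 0.143 when EcR RNAi 0.5 M replicate 1 was left out, and was not called with the length trend removed (limma, Benjamini-Hochberg adjusted p = 0.257). The median of the 87 was -0.27, but 0.10 with the length trend removed, and that of 72 mitochondrial ribosomal protein genes, with no call, was -0.37 and then -0.05.

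Small heat shock proteins fell with the diet in EcR RNAi. Of 20 measured chaperone genes 4 were called lower and none higher (1.33% and 2.59% of all genes), with a median of -0.29. In EcR RNAi 7 of the 20 fell and 5 rose with the diet (10.4% and 14.0% of all genes). In controls none passed the test (1.72% of all genes). Hsp26, a small heat shock protein, had 1722, 1308 and 2219 on 0.15 M and 1227, 3019 and 2983 on 0.5 M sucrose in controls. In EcR RNAi it had 1920.1, 3064 and 1965 on 0.15 M and 458, 442 and 576 on 0.5 M. The 3 EcR RNAi libraries on 0.5 M lay below all others. The interaction of Hsp26 was -2.59 ± 0.46 (log2, SE, limma, Benjamini-Hochberg adjusted p = 0.0115). Hsp68, of the Hsp70 family, had 967, 949 and 1212 on 0.15 M and 1084, 2188 and 2279 on 0.5 M sucrose in controls. In EcR RNAi Hsp68 had 1054, 1951 and 1618 on 0.15 M and 706, 498 and 461 on 0.5 M. It was again lowest in EcR RNAi on 0.5 M, with controls that overlapped between the diets. The interaction of Hsp68 was -2.21 ± 0.41 (log2, SE, limma, Benjamini-Hochberg adjusted p = 0.0121). Hsp27 and Hsp23, both small heat shock proteins, gave -1.96 ± 0.39 and -2.10 ± 0.46 (log2, SE, limma, Benjamini-Hochberg adjusted p = 0.0162 and 0.0242).

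The calls of Hsp26 and Hsp68 held without each single library and with the length trend removed. Hsp27 was lost without 1 of the 12 libraries in turn and had its highest adjusted p (limma, Benjamini-Hochberg) at 0.0509 when EcR RNAi 0.5 M replicate 1 was left out. Hsp23 was lost without 3 of the 12 libraries in turn and had its highest adjusted p (limma, Benjamini-Hochberg) at 0.0842 when control 0.5 M replicate 1 was left out, and was not called with the length trend removed (limma, Benjamini-Hochberg adjusted p = 0.0549). The count of called members was 2 without EcR RNAi 0.5 M replicate 1 and 6 without control 0.5 M replicate 1. The abundant chaperones and their regulator did not pass the test. Hsp83, the fly Hsp90, gave 0.00 ± 0.27, Hsc70-4 0.51 ± 0.25 and the heat shock factor Hsf 0.27 ± 0.19 (log2, SE, limma, Benjamini-Hochberg adjusted p = 0.998, 0.254 and 0.453). Hsp70Ba, Hsp70Bb, Hsp70Bbb and Hsp70Bc are near-identical copies that share reads, so their values of -2.82, -0.09, -1.48 and -2.97 are uncertain.

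Among the gains downward with the smallest p were genes of predicted transporters. CG15406, of the sugar transporter family, had 610.0, 617 and 563 on 0.15 M and 563, 663 and 659.9 on 0.5 M sucrose in controls. In EcR RNAi CG15406 had 560.4, 577 and 621 on 0.15 M and 176, 222 and 186 on 0.5 M. The 9 libraries of the other groups lay between 560.4 and 663, all above the 3 of EcR RNAi on 0.5 M. The interaction of CG15406 was -1.66 ± 0.19 (log2, SE, limma, Benjamini-Hochberg adjusted p = 0.000465). CG7882, of the same family, had 187, 264 and 271 on 0.15 M and 417, 299.5 and 343 on 0.5 M sucrose in controls. In EcR RNAi CG7882 had 249, 305 and 257 on 0.15 M and 69.7, 124 and 69.2 on 0.5 M. It was lowest in EcR RNAi on 0.5 M, with an interaction of -2.22 ± 0.31 (log2, SE, limma, Benjamini-Hochberg adjusted p = 0.0017). CG1732, now named Gat, a transporter of the amino acid GABA, had means of 344 ± 109 and 266 ± 39.1 in controls and 333.5 ± 64.0 and 53 ± 11.2 in EcR RNAi (SD, n = 3 each). The interaction of CG1732 was -2.30 ± 0.33 (log2, SE, limma, Benjamini-Hochberg adjusted p = 0.002). CG11892, a predicted member of the ecdysteroid kinase-like family, had means of 1170.5 ± 155 and 1119 ± 119 in controls and 946 ± 139.8 and 233 ± 84.8 in EcR RNAi, an interaction of -2.0 ± 0.29 (log2, SE, limma, Benjamini-Hochberg adjusted p = 0.002). The 4 calls held without each single library and with the length trend removed.

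Some metal, detoxification and scavenger receptor genes gave further falls. MtnA, a metallothionein that binds copper and other metals, had 4452, 4607 and 3555 on 0.15 M and 4718, 2909 and 3362 on 0.5 M sucrose in controls. In EcR RNAi MtnA had 5501, 4556 and 4975 on 0.15 M and 982, 1590.5 and 958 on 0.5 M. Its 3 EcR RNAi libraries on 0.5 M lay below the other 9. The interaction of MtnA was -1.91 ± 0.31 (log2, SE, limma, Benjamini-Hochberg adjusted p = 0.0042). ZnT35C, which moves zinc into storage vesicles, had 113, 103 and 112 on 0.15 M and 57.0, 59.8 and 61.9 on 0.5 M sucrose in controls. In EcR RNAi ZnT35C had 110.1, 117 and 114 on 0.15 M and 31.3, 20.7 and 25.0 on 0.5 M. It fell with the diet in both genotypes, without overlap, and by more in EcR RNAi, with an interaction of -1.26 ± 0.26 (log2, SE, limma, Benjamini-Hochberg adjusted p = 0.0138). These were the 2 called of 13 measured genes of metal handling (1.33% of all genes were called lower), and ZnT35C was also the one call among 8 Malpighian tubule markers. Of 19 measured scavenger and nimrod receptor genes 1 was called higher, emp, described above, and 2 lower, Sr-CIV and nimC2 (2.59% and 1.33% of all genes), with a median interaction of -0.13. Sr-CIV, a scavenger receptor gene, had 34.0, 32.3 and 36.8 on 0.15 M and 34.9, 34.3 and 41.6 on 0.5 M sucrose in controls. In EcR RNAi Sr-CIV had 51.1, 49.8 and 49.2 on 0.15 M and 17.2, 14.1 and 14.0 on 0.5 M, lowest in EcR RNAi on 0.5 M, with an interaction of -1.77 ± 0.32 (log2, SE, limma, Benjamini-Hochberg adjusted p = 0.0081). The nimrod receptor gene nimC2 gave -1.21 ± 0.32 (log2, SE, limma, Benjamini-Hochberg adjusted p = 0.0441), but its difference of group means on the linear scale had the opposite sign, since its means were 6557 and 5423 in controls and 284 and 98.1 in EcR RNAi, and the call was lost without 10 of the 12 libraries in turn and had its highest adjusted p (limma, Benjamini-Hochberg) at 0.113 when control 0.15 M replicate 2 was left out.

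Of 76 cytochrome P450 genes 3 were called lower and none higher (1.33% and 2.59% of all genes). Their median was -0.31, and -0.17 with the length trend removed. Cyp9b2 had 2672, 2323 and 1455 on 0.15 M and 3589.5, 2181 and 2426 on 0.5 M sucrose in controls. In EcR RNAi Cyp9b2 had 2208, 2079 and 2729 on 0.15 M and 1099.8, 1144 and 869.9 on 0.5 M. The diets overlapped in controls and not in EcR RNAi. The interaction of Cyp9b2 was -1.53 ± 0.33 (log2, SE, limma, Benjamini-Hochberg adjusted p = 0.0183). Cyp6t1 and Cyp6a17 gave -1.61 ± 0.36 and -1.93 ± 0.47 (log2, SE, limma, Benjamini-Hochberg adjusted p = 0.0239 and 0.0323). Cyp6t1 was lost without 5 of the 12 libraries in turn and had its highest adjusted p (limma, Benjamini-Hochberg) at 0.0786 when EcR RNAi 0.15 M replicate 2 was left out. Cyp6a17 was lost without 8 of the 12 libraries in turn and had its highest adjusted p (limma, Benjamini-Hochberg) at 0.0963 when EcR RNAi 0.15 M replicate 2 was left out, and was not called with the length trend removed (limma, Benjamini-Hochberg adjusted p = 0.0502). The count of called P450 genes was 1 without EcR RNAi 0.15 M replicate 1 or 2 or EcR RNAi 0.5 M replicate 1 or 3, and 8 without control 0.5 M replicate 2. Jhedup, a relative of juvenile hormone esterase and the one call among 12 juvenile hormone genes, gave -2.01 ± 0.53 (log2, SE, limma, Benjamini-Hochberg adjusted p = 0.0441) and was lost without 9 of the 12 libraries in turn and had its highest adjusted p (limma, Benjamini-Hochberg) at 0.114 when EcR RNAi 0.15 M replicate 2 was left out, and was not called with the length trend removed (limma, Benjamini-Hochberg adjusted p = 0.0707).

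Among the reversals the controls and the libraries labelled EcR RNAi moved in opposite directions on 0.5 M sucrose. Of the 31 genes 26 were higher on 0.5 M in controls and lower in EcR RNAi, and 5 the other way round. In 1 of them, CG32448, both diet changes passed the test. SoxN, described with the losses, also had opposite changes that each passed, but its rise in EcR RNAi lay under the 1.5-fold limit. CG32448 had 160.1, 169 and 134 on 0.15 M and 367, 233 and 259.6 on 0.5 M sucrose in controls. In EcR RNAi CG32448 had 237.9, 244 and 215 on 0.15 M and 129, 156 and 140.1 on 0.5 M. The diets overlapped in neither genotype, and the change was 0.87 in controls and -0.71 in EcR RNAi. The interaction of CG32448 was -1.58 ± 0.24 (log2, SE, limma, Benjamini-Hochberg adjusted p = 0.0028). CG10513, a predicted ecdysteroid kinase-like gene, had 703, 862 and 593 on 0.15 M and 1022, 1034 and 1171 on 0.5 M sucrose in controls. In EcR RNAi CG10513 had 464, 688 and 679 on 0.15 M and 231, 335 and 227 on 0.5 M. All 3 controls on 0.5 M lay above and all 3 EcR RNAi libraries on 0.5 M below the rest, though the change in controls did not pass the test. The interaction of CG10513 was -1.80 ± 0.27 (log2, SE, limma, Benjamini-Hochberg adjusted p = 0.0025). Rpb10, a subunit shared by the RNA polymerases, gave -1.51 ± 0.29 (log2, SE, limma, Benjamini-Hochberg adjusted p = 0.0097), but not with the length trend removed (limma, Benjamini-Hochberg adjusted p = 0.075).

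In the other direction, Ugt58Fa, a UDP-glycosyltransferase gene, had 116, 91.1 and 92.0 on 0.15 M and 55.3, 51.5 and 61.9 on 0.5 M sucrose in controls. In EcR RNAi Ugt58Fa had 52.6, 93.1 and 75.3 on 0.15 M and 112, 139.7 and 119.7 on 0.5 M. Controls were lower and EcR RNAi libraries higher on 0.5 M, without overlap between diets in either. The interaction of Ugt58Fa was 1.58 ± 0.29 (log2, SE, limma, Benjamini-Hochberg adjusted p = 0.0087). It was the one call among 23 genes of its family (2.59% of all genes were called higher), whose median interaction was -0.11. CG8679 had means that went from 357 to 233 in controls and went from 118 to 204 in EcR RNAi, with an interaction of 1.40 ± 0.26 (log2, SE, limma, Benjamini-Hochberg adjusted p = 0.0096). CG32557, now named Mco4, a multicopper oxidase gene, had 64.0, 32.5 and 48.0 on 0.15 M and 10.3, 15.5 and 21.4 on 0.5 M sucrose in controls. In EcR RNAi CG32557 had 718, 669 and 453 on 0.15 M and 1168, 723 and 1294 on 0.5 M. It fell on 0.5 M in controls, with a change of -1.56 on the log2 scale (limma, Benjamini-Hochberg adjusted p = 0.0215), while the EcR RNAi libraries lay above the controls on both diets. The interaction of CG32557 was 2.33 ± 0.44 (log2, SE, limma, Benjamini-Hochberg adjusted p = 0.0122). CG32448, CG10513, Ugt58Fa, CG8679 and CG32557 held without each single library and with the length trend removed.

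Of the 21 losses 4 had a higher and 17 a lower interaction. The 17 had a median diet change of 1.18 in controls and of -0.29 in EcR RNAi, and those with the smallest p were already high in EcR RNAi on 0.15 M. CG4991, of the SLC36 family of amino acid transporters, had 46.2, 59.8 and 45 on 0.15 M and 364, 239.7 and 291 on 0.5 M sucrose in controls. In EcR RNAi it had 298, 269 and 266 on 0.15 M and 317, 351 and 360.2 on 0.5 M. The 3 controls on 0.15 M lay below all other libraries, and the rise in controls was 2.54 (limma, Benjamini-Hochberg adjusted p = 5.59e-07). The interaction of CG4991 was -2.23 ± 0.24 (log2, SE, limma, Benjamini-Hochberg adjusted p = 0.000465). CG43085 had 2927, 2439 and 1154 on 0.15 M and 12479, 8256 and 13618 on 0.5 M sucrose in controls. In EcR RNAi CG43085 had 37919, 38332 and 20743 on 0.15 M and 25368, 26820.0 and 30464 on 0.5 M. Its controls rose without overlap and stayed below the EcR RNAi libraries, which overlapped between the diets. The interaction of CG43085 was -2.65 ± 0.46 (log2, SE, limma, Benjamini-Hochberg adjusted p = 0.0081). CG11313, a predicted serine protease gene, went the same way, from 305 ± 81.3 to 1181 ± 399 in controls against 2747 ± 574 and 2932 ± 148 in EcR RNAi (SD, n = 3 each), with -1.82 ± 0.35 (log2, SE, limma, Benjamini-Hochberg adjusted p = 0.0115). CG42868, a long non-coding RNA by its current name, had 237.8, 189 and 157 on 0.15 M and 556, 318 and 466 on 0.5 M sucrose in controls. In EcR RNAi CG42868 had 326, 302 and 273 on 0.15 M and 199, 218 and 223 on 0.5 M, with an interaction of -1.67 ± 0.27 (log2, SE, limma, Benjamini-Hochberg adjusted p = 0.004). These 4 held without each single library and with the length trend removed.

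The other 4 losses were lower on 0.5 M in controls, with a median diet change of -0.84. SoxN, a Sox family transcription factor, had 263, 214 and 210.5 on 0.15 M and 83.6, 148 and 136 on 0.5 M sucrose in controls. In EcR RNAi SoxN had 91.1, 90.1 and 86.3 on 0.15 M and 126, 119 and 151 on 0.5 M. The controls fell without overlap, and the EcR RNAi libraries were low on 0.15 M and higher on 0.5 M, with an interaction of 1.49 ± 0.28 (log2, SE, limma, Benjamini-Hochberg adjusted p = 0.0093). CG42666 had 707, 637 and 686 on 0.15 M and 408, 433 and 366 on 0.5 M sucrose in controls. In EcR RNAi CG42666 had 189, 197 and 219.9 on 0.15 M and 238.3, 214 and 296 on 0.5 M. It fell in controls, and the EcR RNAi libraries lay below the controls on each diet. The interaction of CG42666 was 1.04 ± 0.20 (log2, SE, limma, Benjamini-Hochberg adjusted p = 0.0115). Nmdmc, a mitochondrial enzyme of folate metabolism, fell from 425 ± 115.3 to 206 ± 52.6 in controls, against 96.9 ± 0.389 and 114 ± 18.8 in EcR RNAi (SD, n = 3 each), an interaction of 1.25 ± 0.31 (log2, SE, limma, Benjamini-Hochberg adjusted p = 0.0329) that was lost without 8 of the 12 libraries in turn and had its highest adjusted p (limma, Benjamini-Hochberg) at 0.0877 when EcR RNAi 0.15 M replicate 2 was left out. CG8086 gave 1.22 ± 0.29 (log2, SE, limma, Benjamini-Hochberg adjusted p = 0.0304). Its call was lost without 5 of the 12 libraries in turn and had its highest adjusted p (limma, Benjamini-Hochberg) at 0.0968 when EcR RNAi 0.5 M replicate 1 was left out, and it was not made with the length trend removed (limma, Benjamini-Hochberg adjusted p = 0.0838). SoxN held in every fit without 1 library and with the length trend removed, and CG42666, which has no length in the annotation used, in every fit without 1 library.

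In 14 called genes the diet change had the same direction in both genotypes and was larger in EcR RNAi, 11 of them upward. Besides Gpo-1 and ZnT35C these included CG5853, a predicted ABC transporter gene, which had 210.0, 245 and 263 on 0.15 M and 483, 357 and 371 on 0.5 M sucrose in controls. In EcR RNAi CG5853 had 283, 222 and 289 on 0.15 M and 1009.9, 1129 and 944 on 0.5 M. It rose in both genotypes without overlap, by 0.74 and 1.96 on the log2 scale, with an interaction of 1.21 ± 0.22 (log2, SE, limma, Benjamini-Hochberg adjusted p = 0.0087). CG1882, now named puml, had 149.9, 138 and 177 on 0.15 M and 302, 215 and 254 on 0.5 M sucrose in controls. In EcR RNAi CG1882 had 223, 218 and 218 on 0.15 M and 914, 708 and 1034 on 0.5 M. It rose in both, by 0.72 and 1.99. The interaction of CG1882 was 1.27 ± 0.23 (log2, SE, limma, Benjamini-Hochberg adjusted p = 0.0089). Tsp42Eh, a tetraspanin gene, went from 24.3 ± 3.78 to 46.6 ± 13.0 in controls and from 53.7 ± 15.8 to 326 ± 34.2 in EcR RNAi (SD, n = 3 each), with 1.73 ± 0.34 (log2, SE, limma, Benjamini-Hochberg adjusted p = 0.0121). CG4269 rose in EcR RNAi by 3.39 against 0.89 in controls, an interaction of 2.50 ± 0.42 (log2, SE, limma, Benjamini-Hochberg adjusted p = 0.0093), yet its means of 518 and 960.1 in controls and 26.4 and 272 in EcR RNAi gave the opposite sign on the linear scale. These 4 held without each single library and with the length trend removed. CG4269 and nimC2 were the 2 of the 394 called genes whose sign differed between the log2 and the linear scale.

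Under the 1.5-fold limit in both genotypes were 13 called genes with small moves. FBgn0010877 had 460.0, 403 and 469 on 0.15 M and 325, 377 and 349 on 0.5 M sucrose in controls. In EcR RNAi FBgn0010877 had 258, 276 and 280.1 on 0.15 M and 432, 376 and 410.1 on 0.5 M. It was highest in controls on 0.15 M and lowest in EcR RNAi on 0.15 M. The interaction of FBgn0010877 was 0.92 ± 0.18 (log2, SE, limma, Benjamini-Hochberg adjusted p = 0.0121). DIP2 gave 0.92 ± 0.20, bocksbeutel, a nuclear envelope protein gene, 1.07 ± 0.26, and CG12054 0.71 ± 0.18 (log2, SE, limma, Benjamini-Hochberg adjusted p = 0.0175, 0.0329 and 0.0347). bou gave -0.91 ± 0.24 and CG33926 -1.04 ± 0.28 (log2, SE, limma, Benjamini-Hochberg adjusted p = 0.0451 and 0.0456). Apart from FBgn0010877, each of these was lost without at least 1 library, from 1 of 12 for DIP2 to 10 of 12 for CG33926. With the length trend removed FBgn0010877 and bocksbeutel remained called, and DIP2, CG12054, bou and CG33926 did not (limma, Benjamini-Hochberg adjusted p = 0.0901, 0.159, 0.257 and 0.199).

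Many of the largest called interactions were those of genes with a low signal in at least 1 group, where the log2(value + 1) scale understates the change. CG1077 had 4.51, 10.9 and 2.07 on 0.15 M and 17.1, 12.1 and 16.8 on 0.5 M sucrose in controls. In EcR RNAi CG1077 had 21.9, 12.2 and 4.03 on 0.15 M and 1278, 558 and 364 on 0.5 M. Only the 3 EcR RNAi libraries on 0.5 M lay above 21.9. The interaction of CG1077 was 4.33 ± 0.87 (log2, SE, limma, Benjamini-Hochberg adjusted p = 0.0215). CG14515 had 4.68, 2.30 and 5.10 on 0.15 M and 1.58, 1.65 and 0.85 on 0.5 M sucrose in controls. In EcR RNAi CG14515 had 5.44, 2.81 and 1.01 on 0.15 M and 72.7, 15.5 and 35 on 0.5 M, with 4.32 ± 0.80 (log2, SE, limma, Benjamini-Hochberg adjusted p = 0.0087). CG5697 had 358, 85.0 and 179.8 on 0.15 M and 90.7, 157 and 80.1 on 0.5 M sucrose in controls. In EcR RNAi CG5697 had 139.5, 89.1 and 61.3 on 0.15 M and 991, 843 and 891 on 0.5 M. Its EcR RNAi libraries on 0.5 M lay above all others. The interaction of CG5697 was 4.04 ± 0.70 (log2, SE, limma, Benjamini-Hochberg adjusted p = 0.0175). CG10814 had 40.1, 32.4 and 51 on 0.15 M and 48.8, 17.5 and 38.1 on 0.5 M sucrose in controls. In EcR RNAi CG10814 had 134, 173 and 88.4 on 0.15 M and 1795, 989.7 and 1476 on 0.5 M, with 3.76 ± 0.52 (log2, SE, limma, Benjamini-Hochberg adjusted p = 0.0038). For CG10814 as for CG14515 the call held without each single library. The call of CG1077 was lost without 2 of the 12 libraries in turn and had its highest adjusted p (limma, Benjamini-Hochberg) at 0.0575 when control 0.5 M replicate 3 was left out. That of CG5697 was lost without 2 of the 12 libraries in turn and had its highest adjusted p (limma, Benjamini-Hochberg) at 0.0577 when EcR RNAi 0.5 M replicate 1 was left out. CG11898 and CG15597 gave 3.68 and 2.85 and were lost without 8 and 9 of the 12 libraries in turn, with highest adjusted p = 0.0989 and 0.107 without EcR RNAi 0.15 M replicate 2 (limma, Benjamini-Hochberg). CG11898 was also not called with the length trend removed (limma, Benjamini-Hochberg adjusted p = 0.0598).

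Downward, the largest after spok was CG15369, with 10094, 7999 and 5140.1 on 0.15 M and 18027, 7059 and 8388 on 0.5 M sucrose in controls. In EcR RNAi CG15369 had 4535, 6050.5 and 4401 on 0.15 M and 314, 1081 and 456 on 0.5 M. The 3 EcR RNAi libraries on 0.5 M were the lowest of the 12. The interaction of CG15369 was -3.65 ± 0.67 (log2, SE, limma, Benjamini-Hochberg adjusted p = 0.0177). CG42715, a long non-coding RNA by its current name, had 1.37, 6.5 and 2.05 on 0.15 M and 15.2, 8.82 and 12.4 on 0.5 M sucrose in controls. In EcR RNAi CG42715 had 7.90, 9.35 and 15.1 on 0.15 M and 3.03, 3.23 and 1.45 on 0.5 M, opposite moves at low values, with -3.48 ± 0.69 (log2, SE, limma, Benjamini-Hochberg adjusted p = 0.0121). Both held without each single library and with the length trend removed. CG15919, CG9150, CG1722, CG42711, CG13023, CG9521, CG14823 and CG42287 gave interactions from -3.42 to -2.67 and had no group mean above 132. Each of these 8 was lost without at least 1 library, from 1 of 12 for CG1722 to 8 of 12 for CG42711 and CG13023. With the length trend removed CG15919, CG42711 and CG42287 were not called (limma, Benjamini-Hochberg adjusted p = 0.0687, 0.0773 and 0.0562). Of the 394 called genes 7 had a mean under 10 over the 12 libraries.

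Lists of other tissues were read beside these results, since the samples were dissected. No muscle, salivary gland, hemocyte, midgut, cuticle, nerve or gonad marker had a called interaction. The 13 muscle markers had a median interaction of 1.41. With the diet 8 of them rose in EcR RNAi (14.0% of all genes), while none passed the test in controls (1.72% of all genes). Their summed signal was 9435 to 30418 in EcR RNAi on 0.15 M, 41083 to 85531 in EcR RNAi on 0.5 M, 21375 to 47396 in controls on 0.15 M and 29383 to 45304 in controls on 0.5 M. Mhc, the muscle myosin heavy chain, gave 1.42 ± 0.69 and Act57B, a muscle actin, 2.32 ± 0.91 (log2, SE, limma, Benjamini-Hochberg adjusted p = 0.269 and 0.185). The 7 salivary gland markers had a median of 1.24 and sums of 1320 to 3845 and 1900 to 6949 in EcR RNAi, against 20199 to 23820 and 7251 to 31278 in controls, on 0.15 M and 0.5 M. The 7 hemocyte markers had a median of 0.28, and 6 were above 0. Hemocyte sums were 9307 to 11471 in EcR RNAi on 0.5 M, above every library of the other groups. EcR RNAi on 0.15 M had sums of 5688 to 8004. Controls had sums of 6025 to 9269 on 0.15 M and 6323 to 8478 on 0.5 M. The part of muscle, salivary gland and hemocyte RNA in the interactions was not tested.

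No interaction was called in the lists of glycolysis, glycogen and trehalose, larval serum proteins, the unfolded protein response, antioxidants, glutathione transferases, ribosome biogenesis, the proteasome, the TCA cycle, amino acid catabolism, purine synthesis, collagen or the cell cycle. Their medians lay between -0.30 for 6 larval serum protein genes and 0.37 for 12 purine genes. The median of larval serum proteins changed sign after quantile normalisation, to 0.12, and those of amino acid catabolism and the proteasome with upper quartile scaling, to -0.04 and -0.12. That of glutathione transferases turned from -0.09 to 0.22 with the length trend removed. Lsp1alpha, a larval serum protein gene, fell with the diet in EcR RNAi, with a change of -1.62 on the log2 scale against 0.22 in controls, and its interaction of -1.84 ± 0.53 did not pass (limma, Benjamini-Hochberg adjusted p = 0.0621). Just inside the threshold was lace, at 0.83 (limma, Benjamini-Hochberg adjusted p = 0.0497), and just outside it were CG14764, at 0.84, CR40582, at -1.41, and Muc55B, at 3.56 (limma, Benjamini-Hochberg adjusted p = 0.0501 for Muc55B).

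The count of called genes rested on single libraries. It ran from 141 without EcR RNAi 0.5 M replicate 1 to 532 without control 0.5 M replicate 1. Leaving out control 0.15 M replicate 2 or 3 gave 183 and 239, EcR RNAi 0.15 M replicate 1 or 2 gave 242 and 151, control 0.5 M replicate 3 gave 183, and EcR RNAi 0.5 M replicate 3 gave 248. Of the 394 genes 130 were called in all 12 fits without 1 library, and 264 were lost in at least 1. The 130 include Pino, Pi3K92E, Ilp6, Thor, Rel, emp, sad, spok, phm, mt:ATPase6, Hsp26, CG15406, MtnA and CG4991.

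**Figure D5:**
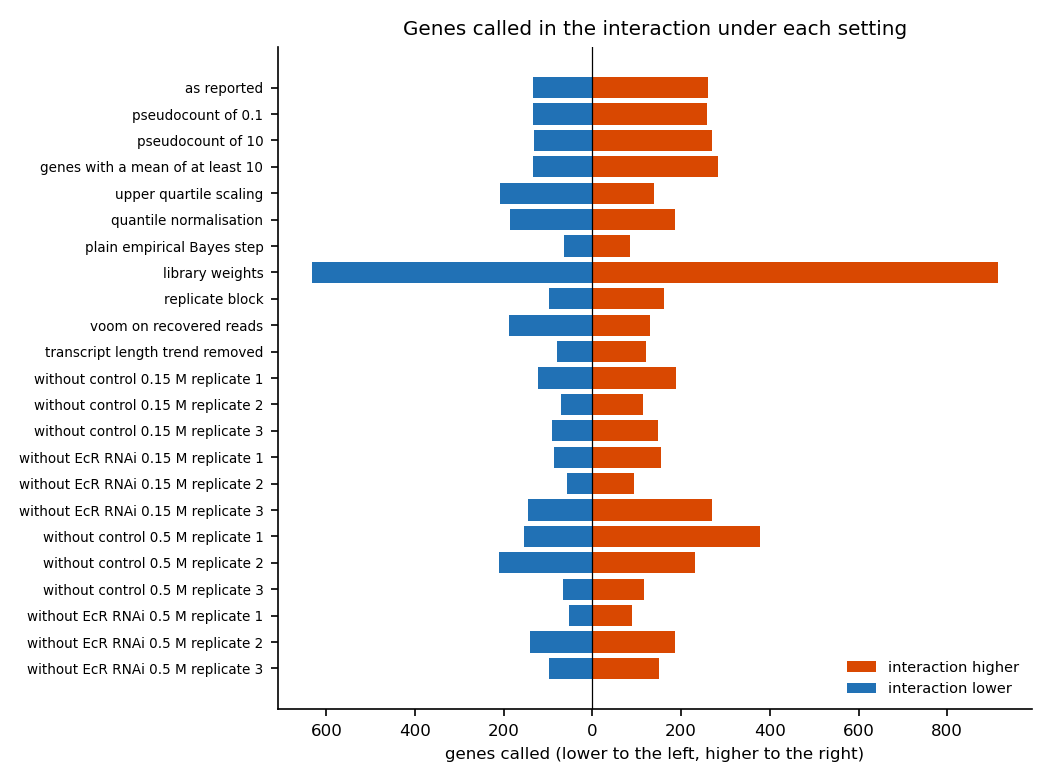
Bars give the number of genes called in the interaction, higher to the right and lower to the left, in the analysis as reported and under each alternative, including the 12 fits without 1 library. The total runs from 141 to 532 among the fits without 1 library and reaches 1546 with library weights, and the larger side turns from higher to lower with upper quartile scaling and with voom on recovered reads.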

How the data were processed

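RNA of fat bodies from 12 samples, 3 in each of 4 groups, was extracted with Trizol, treated with DNase, depleted of ribosomal RNA and sequenced on an Illumina HiSeq, per the labels' protocols. The authors deposited 1 table of normalised signal per gene and library. Its scaling is not stated. Tools that the submitters' processing notes list, with no role given, are edgeR, Cufflinks 1.1.0, Bowtie 0.12.7 and TopHat 1.3.2. A genome build was not given in the sources used here. Counts were recovered from the signal with 1 scale per library and a dispersion of 0.045. Among values from 5 to 40, which were 2177 to 2364 per library, 95.1 to 100% came out as whole reads within 0.05. Values outside this range did not enter that share. Scale and dispersion were themselves recovered from the same values, so the share is no independent check. The recovered reads summed to 8527318 to 11601009 per library, and the precision of low values is limited accordingly. Whether reads were counted by strand is not stated, so overlapping and antisense genes are uncertain, as are near-identical copies.

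The values were signal and not counts, so log2(value + 1) was fitted with limma 3.58.1 in R 4.3.3, with 1 mean for each of the 4 groups, all 12 libraries and an empirical Bayes step with trend and robust settings. All 10047 genes passed a minimum mean of 1. P-values are two-sided and Benjamini-Hochberg adjusted over all 10047 genes, with a threshold of 0.05. Fold changes are on the log2(value + 1) scale and understate the change of low genes. Groups came from the titles and genotype and diet labels. Classes used a limit of 1.5-fold on each diet change. Lengths are those of the longest transcript in Ensembl release 115 (BDGP6) for the 9605 gene IDs that matched. Current names came from tables of gene names. The model was tested on simulated data with known interactions. These data held no length trend in the interaction and no deviation of a library shared across genes. That test therefore does not cover either. The members and gene lists were chosen with earlier results of these data known, so counts over a list are descriptions. Named genes are EcR, w and Dcr-2; among called genes whose highest group mean was at least 10, the 12 most positive and the 12 most negative interactions; up to 4 of the smallest p in each class and direction; and up to 4 called members of each list. S6k, gig, Akt1, list members without a call, and the genes of the last section were added after their values were seen. The alternatives were other pseudocounts (0.1 and 10), a minimum mean of 10 or none, upper quartile and quantile scaling, a plain empirical Bayes step, library weights, a replicate block, voom on recovered reads, leaving out each library, other rules for the classes and, chosen after seeing the data, removal of the transcript length trend.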

Additional observations from a re-analysis of the deposited data

Results flagged for a closer look

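Each of the 93 called genes chosen by the naming rule had a diet change that differed between the genotypes by the test of the difference itself (limma, Benjamini-Hochberg adjusted p under 0.05), and this is why it is listed here with its interaction in log2. The values are those of the same test as in the results, and no explanation was weighed. The rule for a single library far from its group was not applied, since groups hold 3 libraries.

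Genes gained upward in EcR RNAi were CG10814 at 3.76, CG9451 at 2.99, CG15597 at 2.85, sad at 2.42, CG5966 at 2.27, Pino at 2.06, pirk at 1.85, Ilp6 at 1.79, Thor at 1.75 and emp at 1.74. Further ones in this class were CG6707 at 1.58, Pi3K92E at 1.52, Mio at 1.26, Rel at 1.19, Mmp1 at 1.1501, Men at 1.11, Sesn at 1.07, Atg2 at 1.0, Vha55 at 0.98 and bmm at 0.96. Further ones in this class were vri at 0.89, Myd88 at 0.86, Tak1 at 0.79 and sgg at 0.78. Genes gained downward were spok at -4.08, CG15369 at -3.65, CG1722 at -3.02, CG42711 at -3.02, CG13023 at -2.94, mt:ND5 at -2.69, Hsp26 at -2.59, phm at -2.34, CG1732 at -2.30 and CG7882 at -2.22. Further ones in this class were Hsp23 at -2.10, mt:CoI at -2.08, CG11892 at -2.0, PGRP-SB1 at -1.99, Hsp27 at -1.96, MtnA at -1.91, Sr-CIV at -1.77, CG15406 at -1.66, Cyp9b2 at -1.53 and CG40002 at -1.44. Further ones in this class were RpL41 at -1.21 and nimC2 at -1.21.

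Reversals with a higher interaction were CG14515 at 4.32, CG5697 at 4.04, CG32557 at 2.33, Ugt58Fa at 1.58 and CG8679 at 1.40. Reversals with a lower interaction were CG42715 at -3.48, CG15919 at -3.42, CG9150 at -3.08, CG9521 at -2.78, CG14823 at -2.68, CG42287 at -2.67, mt:ATPase6 at -2.53, mt:Cyt-b at -2.52, Hsp68 at -2.21 and Jhedup at -2.01. Further ones in this class were Cyp6a17 at -1.93, CG10513 at -1.80, Ucrh at -1.63, CG32448 at -1.58 and Rpb10 at -1.51. Losses with a higher interaction were SoxN at 1.49, Nmdmc at 1.25, CG8086 at 1.22 and CG42666 at 1.04. Losses with a lower interaction were CG43085 at -2.65, CG4991 at -2.23, CG11313 at -1.82, CG42868 at -1.67, Cyp6t1 at -1.61, CG34439 at -1.12 and shd at -1.05.

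Genes that moved in the same direction in both genotypes and further upward in EcR RNAi were CG1077 at 4.33, CG11898 at 3.68, CG4269 at 2.50, Tsp42Eh at 1.73, Gpo-1 at 1.5, CG1882 at 1.27 and CG5853 at 1.21. Genes that moved in the same direction and further downward were CR43314 at -1.43, ZnT35C at -1.26 and CG32647 at -1.21. Genes with small moves in both genotypes and a higher interaction were bocksbeutel at 1.07, DIP2 at 0.92, FBgn0010877 at 0.92 and CG12054 at 0.71. Genes with small moves and a lower interaction were CG33926 at -1.04 and bou at -0.91.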

How the results depend on the processing

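Among the 93 called named genes and the 3 checks, a direction turned only for EcR and w, neither of which was called: EcR to -0.062 with the length trend removed, and w to -0.11 with upper quartile scaling, -0.14 after quantile normalisation, -0.12 with voom, -0.0078 with the length trend removed and, over the 12 fits without 1 library, from -0.14 to 0.28. Against 394 genes (260 higher, 134 lower), a plain empirical Bayes step called 149 (85, 64), library weights 1546 (914, 632) and removal of the length trend, chosen after seeing the data, 200 (120, 80), while upper quartile scaling gave 139 higher and 209 lower and voom 130 higher. The library weights did not converge: 1 control 0.5 M library had a weight of 5.89 and another of 0.241. Reversals, gains and losses (31, 315 and 21) numbered 20, 114 and 7 with the plain step, 92, 897 and 90 with weights and 20, 150 and 12 with the length trend removed. A 2-fold limit gave 5 reversals and 190 gains, and requiring that each diet change pass gave 2 reversals and 13 losses. Without 1 library the total was 141 to 532, higher calls 89 to 377, lower calls 52 to 212, reversals 14 to 64, gains 105 to 425 and losses 9 to 75. Of the 93 called named genes 52 were called in all 12 such fits. Same-numbered libraries did not deviate together (correlations of -0.196 to 0.165, other numbers -0.170 to 0.215), and the reported fit used no pairing. Correlations over all genes cannot exclude a shared origin, and the labels give only a number. With a replicate block 260 genes were called, 161 of them higher and 202 of them gains, and 254 of the 260 were among the 394. No cause of these changes was tested.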

Other observations

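The genes of this section were picked from the 394 called genes after their values were seen, so no count over them is a result. Several act in the sorting of membrane proteins at endosomes. CG3077, a sorting nexin gene, had 43.0, 53.3 and 58.2 in controls on 0.15 M and 36.0, 65.0 and 56.6 on 0.5 M sucrose, and 84.3, 73.2 and 64.3 and 252, 233 and 221 in EcR RNAi. Its interaction was 1.67 ± 0.30 (log2, SE, limma, Benjamini-Hochberg adjusted p = 0.0081). Stam and Hrs, which bind ubiquitin-marked cargo together, gave 1.13 ± 0.21 and 0.82 ± 0.22, and Vps13, a lipid transfer protein, 1.22 ± 0.24 (limma, Benjamini-Hochberg adjusted p = 0.0087, 0.0467 and 0.0114). The call of Hrs was kept in 4 of 12 fits without 1 library and not with the length trend removed (limma, Benjamini-Hochberg adjusted p = 0.0733), while CG3077, Stam and Vps13 kept theirs in all 12. bchs, which acts in autophagy, gave 1.79 ± 0.24 (limma, Benjamini-Hochberg adjusted p = 0.0011) and was called in all 12 fits and with the length trend removed.

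Genes of stress signalling were also among those with a higher interaction. wnd, a kinase above JNK, gave 1.05 ± 0.21, puc, the JNK phosphatase, 1.21 ± 0.29, and kay, the fly Fos, 1.01 ± 0.23 (limma, Benjamini-Hochberg adjusted p = 0.0134, 0.0303 and 0.0231). Their calls were kept in 11, 7 and 8 of 12 fits without 1 library, and with the length trend removed puc and kay were not called (limma, Benjamini-Hochberg adjusted p = 0.0502 and 0.0676). Socs44A, an inhibitor of JAK/STAT signalling, gave 1.29 ± 0.23 (limma, Benjamini-Hochberg adjusted p = 0.0081) and was called in all 12 fits and with the length trend removed. Among transporters with a lower interaction, NaPi-T gave -1.25 ± 0.25 and CG42235 -1.36 ± 0.25 (limma, Benjamini-Hochberg adjusted p = 0.0121 and 0.0081), and both were called in all 12 fits and with the length trend removed.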
